A study of Ulmus pumila with 3 samples.

Results

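The elm miRNAs described here belong to 4 families linked to phosphate and sulfate supply, miR399, miR827, miR2111 and miR395. They are all names whose family number is one of these in the deposited miRNA tables, 27 of the 309 names, with 13 of miR399, 5 of miR827, 1 of miR2111 and 8 of miR395. Small RNA was sequenced from roots of wild-type Siberian elm (Ulmus pumila) seedlings aged 30 days, from unstressed plants (control), plants given 50 mM NaCl for 6 h and plants given 200 mM NaCl for 24 h, with 1 library per condition. The salt libraries differ in both dose and time, which cannot be told apart, and the labels do not say how many seedlings made up a library. There are no replicates, so no test between conditions was possible, and the 95% intervals describe the counting error of single libraries; amplified reads are not independent molecules.

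MicroRNAs (miRNAs) are short RNAs that guide the silencing of transcripts they pair with, in plants over most of their length. In Arabidopsis, miR399 targets PHO2, a ubiquitin conjugase that limits phosphate transporters, and it is made in phosphate-starved shoots and moves through the phloem to the root. miR827 targets NLA in Arabidopsis and SPX-MFS phosphate transporters in rice, and miR2111 targets an F-box gene, known in Lotus as TML, a brake on nodule formation. miR395 acts on sulfate supply through ATP sulfurylases and a sulfate transporter. The targets were not measured here.

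The sequences of the most counted name or names of each family, 5′ to 3′ with the seed (bases 2 to 8) in capitals, show how close the members of a family are.
miR399a: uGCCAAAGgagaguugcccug
miR399b: uGCCAAAGgagaauugcccug
miR399c: uGCCAAAGgagauuugccccg
miR827a: uUAGAUGAccaucaacaaaca
miR827b: uUAGAUGAccaucaacaaacu
miR827c: uUAGAUGAccaucaacaaacg
miR2111: uAAUCUGCauccugagguuua
miR395a: uUGAAGUGuuugggggaacuc

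All 13 miR399 names had the seed GCCAAAG and all 5 miR827 names the seed UAGAUGA. Counting positions from 1 at the 5′ end, miR399b differed from miR399a by G13A, and miR399c differed from it by G13U and U20C. The names miR827b and miR827c differed from miR827a at the last base alone, by A21U and A21G. Of the 27 names, 23 were 21 nt long, and the shortest had 18 nt.

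The counts of all 309 names summed to 509280 in control roots, 449522 at 50 mM and 545587 at 200 mM. These totals add up names rather than sequenced reads, and names of like sequence may hold the same reads. Levels are given as RPM, reads per 1000000 of that total, without correction for length; 1 read was worth 1.96, 2.22 and 1.83 RPM in that order. The 27 names together held 794, 1220 and 917 counts, which is 0.156%, 0.271% and 0.168% of the totals. The tables hold no messenger RNA, so the root label could not be checked against marker genes, and fewer cells of a type and less RNA per cell cannot be told apart in such bulk samples.

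**Figure D1:**
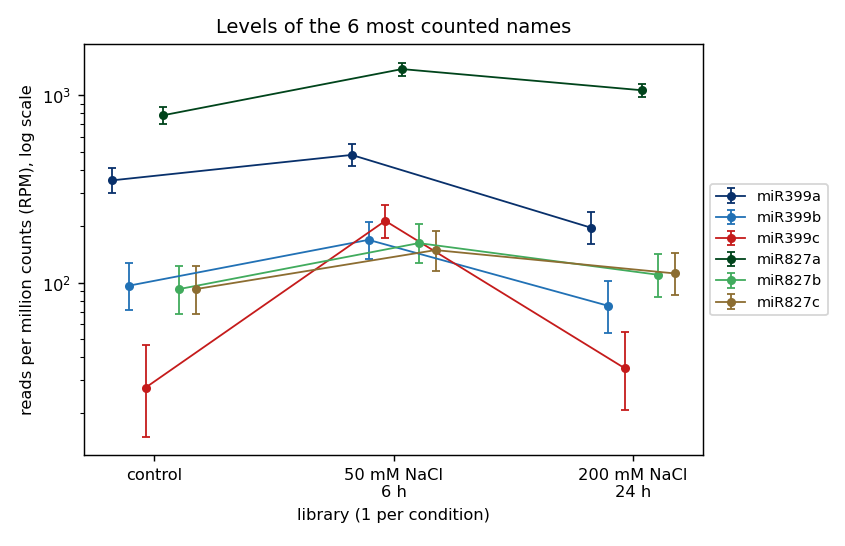
RPM on a log scale of the 6 names with at least 20 counts in a library, against the library, with exact 95% Poisson intervals; lines join the values of 1 name. miR399c stood at 27.5 RPM in control roots, 214 at 50 mM and 34.8 at 200 mM, while the 3 miR827 names kept nearly constant distances from each other.

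miR827 was the most abundant of the 4 families in every library, and its level was higher in both salt libraries than in control roots. miR827a had 398 counts in control roots, 621 at 50 mM and 581 at 200 mM, which are 781 RPM (95% interval 707 to 862), 1381 RPM (1275 to 1495) and 1065 RPM (980 to 1155). The 3 intervals did not overlap, and among all listed names miR827a ranked 72nd, 48th and 48th by count. The ratio of miR827a at 50 mM over control was 1.77 (1.56 to 2.01). At 200 mM over control it was 1.36 (1.197 to 1.55).

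miR827b had 47 counts in control roots, 73 at 50 mM and 60 at 200 mM. miR827c had 47, 67 and 61 counts in the same order. Set against miR827a in the same library, which needs no scaling between libraries, miR827b stood at 11.8%, 11.8% and 10.3% and miR827c at 11.8%, 10.8% and 10.5%. The intervals of these shares overlapped throughout, for miR827b at 200 mM running 7.78% to 13.5%. The names share their first 20 bases, so their levels are not separate measurements of the family. The ratios at 50 mM over control were 1.76 (1.203 to 2.596) for miR827b and 1.62 (1.096 to 2.397) for miR827c, and at 200 mM over control 1.19 (0.7999 to 1.78) and 1.21 (0.815 to 1.81), where both intervals include 1. With TMM factors these became 1.505 (1.01 to 2.25) and 1.53 (1.03 to 2.29), and with median-of-ratios factors 1.53 (1.03 to 2.296) and 1.56 (1.05 to 2.33), with intervals that exclude 1.

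The remaining miR827 names, miR827d (A17G against miR827a) and miR827e (A15G), were not listed in control roots. miR827d had 5 counts at 50 mM and 2 at 200 mM, and miR827e had 4 and 1. The 5 counts of miR827d at 50 mM are 11.1 RPM with an interval of 3.61 to 25.96. An allowance of 3 reads for the 0 in control roots is 5.89 RPM, and its exact 95% upper limit is 7.24 RPM. Both lie within that interval. Against the count of 0 itself, the interval of the ratio to control starts at 1.04 for miR827d and at 0.748 for miR827e. A difference was thus not detectable at this depth for miR827e, and for miR827d it depends on how the 0 is taken.

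Summed miR399 parted from summed miR827 at the stronger and longer treatment. The summed counts of miR399 were 277 in control roots, 449 at 50 mM and 186 at 200 mM. Within each library, summed miR399 stood at 0.563 of summed miR827 in control roots (0.484 to 0.654), at 0.583 at 50 mM (0.518 to 0.656) and at 0.264 at 200 mM (0.223 to 0.311). This proportion does not depend on the scaling between libraries, though its intervals treat the counts of overlapping names as separate. For the most counted name of each family the proportion, miR399a to miR827a, was 0.450 (0.375 to 0.538), 0.348 (0.297 to 0.407) and 0.184 (0.148 to 0.227). Not every miR399 name followed this. The proportion of miR399c to miR827a was 0.0352 (0.0191 to 0.0597), 0.155 (0.123 to 0.192) and 0.0327 (0.0195 to 0.0515). Its control and 200 mM intervals overlapped.

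miR399a had 179 counts in control roots, 216 at 50 mM and 107 at 200 mM, which are 351 RPM (302 to 407), 481 RPM (419 to 549) and 196 RPM (161 to 237). Its highest level was thus at 50 mM and its lowest at 200 mM, with no overlap of the intervals. The ratio was 1.37 (1.12 to 1.68) at 50 mM over control, 0.558 (0.435 to 0.713) at 200 mM over control and 0.408 (0.321 to 0.517) between the salt libraries, 200 mM over 50 mM. miR399b, which carries G13A, had 49, 76 and 41 counts. Its ratio at 50 mM over control was 1.76 (1.21 to 2.57). The ratio at 200 mM over control was 0.781 (0.503 to 1.21), an interval that includes 1, and its direction turned with median-of-ratios factors (1.005).

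miR399c differed from miR399a and miR399b in how far it stood above the control level. It had 14 counts in control roots, 96 at 50 mM and 19 at 200 mM, or 27.5 RPM (15.03 to 46.1), 214 RPM (173 to 261) and 34.8 RPM (20.97 to 54.4). The 50 mM library alone was high, and the intervals of the 200 mM and control libraries overlapped. Its ratio at 50 mM over control, 7.77 (4.41 to 14.7), lay above the intervals of miR399a and miR399b. At 200 mM over control it was 1.27 (0.602 to 2.73). Per count of miR399a in the same library, miR399c stood at 7.82% in control roots (4.19% to 13.5%) and 44.4% at 50 mM (34.6% to 56.8%), and its share at 200 mM was 17.8% (10.3% to 29.1%).

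Most of the names 1 base away from miR399c also had their highest count at 50 mM. All 5 names differ from it within the last 3 positions, and the change against miR399c is in capitals.
miR399g: ugccaaaggagauuugccUcg
miR399h: ugccaaaggagauuugccccU
miR399j: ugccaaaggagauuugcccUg
miR399l: ugccaaaggagauuugcccAg
miR399m: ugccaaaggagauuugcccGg

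The names miR399h (G21U), miR399j (C20U), miR399l (C20A) and miR399m (C20G) each had 1 or 2 counts in control roots, 9 to 12 at 50 mM and 2 to 4 at 200 mM. The remaining name, miR399g (C19U), had 2, 1 and 0 counts. Together the 5 names had 7, 42 and 10 counts, which per count of miR399c is 50.0% in control roots (17.1% to 132%) and 43.8% at 50 mM (29.7% to 63.5%), with 52.6% at 200 mM (21.9% to 119%). The names miR399h, miR399j, miR399l and miR399m overlap in sequence and had near-equal counts in each library. Joining of near-equal names put them into 1 group, so they may hold the same reads. Their rise is thus not shown by separate measurements, and the 42 counts at 50 mM may stand for far fewer reads. The intervals above treat these counts as separate. All 5 names share their first 18 bases with miR399c, and whether their reads are also counted under miR399c was not tested. miR399j is also 1 base away from miR399a (G13U).

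Grouped by the base at position 13, a grouping chosen after the values were seen, the family was split into 3 sets. The 6 names that carry G13U against miR399a (miR399c and the 5 names 1 base from it) held 21 counts in control roots, 138 at 50 mM and 29 at 200 mM, which is 7.58% of all miR399 counts (4.75% to 11.4%), 30.7% (26.5% to 35.2%) and 15.6% (10.7% to 21.6%). The 3 names with G13A (miR399b, miR399f and miR399i) held 55, 84 and 42 counts, a share of 19.9%, 18.7% and 22.6%, with overlapping intervals. The 4 names with the base of miR399a held 201, 227 and 115 counts, or 72.6% (66.9% to 77.7%), 50.6% (45.8% to 55.3%) and 61.8% (54.4% to 68.8%). The intervals of these shares treat the counts of names that may hold the same reads as separate, so they may be too narrow. The summed ratios of these sets at 50 mM over control were 7.45 for the names with G13U, 1.73 for those with G13A and 1.28 for those with the base of miR399a. At 200 mM over control they were 1.29, 0.713 and 0.534 in the same order.

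**Figure D2:**
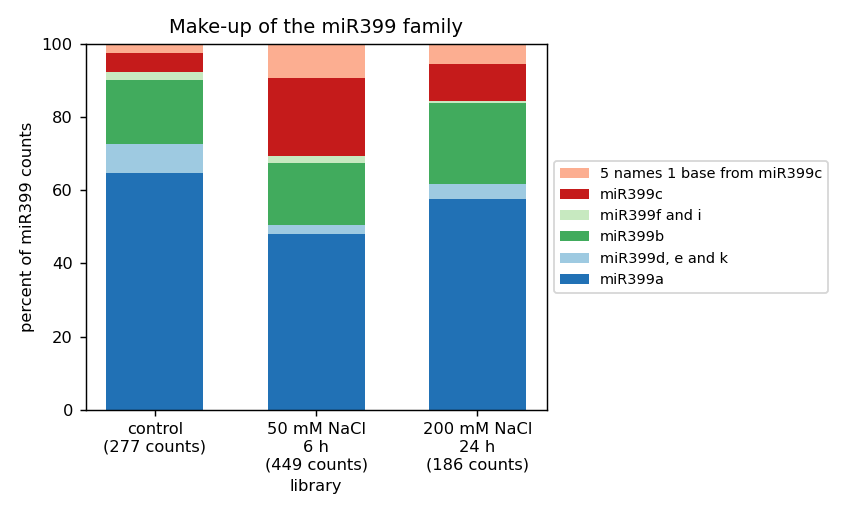
Percent of the miR399 counts of a library (number in brackets) taken by miR399a, by miR399b, by miR399c and by the names closest to each, in 3 stacked bars. The red and pale red parts, miR399c and the 5 names 1 base from it, together held 7.58% in control roots, 30.7% at 50 mM and 15.6% at 200 mM.

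Of the names with the base of miR399a, miR399d (G21U) and miR399e (G21A) differ from it at the last base alone and did not stand higher at 50 mM. miR399d had 13 counts in control roots, 6 at 50 mM and 5 at 200 mM, and miR399e had 8, 5 and 2. Their ratios at 50 mM over control were 0.523 (0.163 to 1.47) and 0.708 (0.182 to 2.45), with intervals that include both 1 and the value of miR399a. miR399k, the only name of the family that starts with C (U1C), had 1, 0 and 1 counts. miR399f and miR399i, both 19 nt long, had 5, 4 and 0 and 1, 4 and 1 counts.

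A name outside the 4 families pairs with miR399 and is shown for that reason. The authors' new miRNA 18, here new-18, is the only name outside the families with at least 16 nt of overlap and at most 2 mismatches to any member, on either strand. Its bases that pair with miR399b are in capitals.
new-18: GuGCAAUUCUCCUUUGGCAgc

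The 21 nt of new-18 face 19 nt of miR399b with 1 mismatch and leave 2 bases of each strand unpaired at its 3′ end; with miR399a or miR399c there were 2 mismatches and with the shorter miR399f none. In a miRNA duplex cut from a hairpin, the strands are known to leave such short 3′ ends. No genome was used here, so a shared hairpin was not examined. new-18 had 45 counts in control roots, 62 at 50 mM and 9 at 200 mM. Its ratio was 1.56 (1.05 to 2.34) at 50 mM over control and 0.187 (0.0802 to 0.387) at 200 mM over control. Per count of miR399b, new-18 stood at 0.918 in control roots (0.599 to 1.41) and 0.816 at 50 mM (0.574 to 1.16), with 0.220 at 200 mM (0.0938 to 0.459). The interval of this proportion at 200 mM lay below those of the other libraries.

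miR2111 and miR395 were close to the limit of detection. miR2111 was not listed in control roots and had 1 count at 50 mM and 2 at 200 mM, against an allowance of 3 reads for a count of 0. miR395a had 3 counts at 200 mM against 4 in control roots, and the other 7 miR395 names had 3 counts each in both. None of the 8 was listed at 50 mM, where the allowance of 3 reads is 6.67 RPM and the exact 95% upper limit of a count of 0 is 8.21 RPM. The control level of miR395a was 7.85 RPM with an interval of 2.14 to 20.1, and the interval of the ratio at 50 mM over control, 0 to 1.72, includes 1. All 8 names contain the same 17 bases.
Shared run of miR395: aaguguuugggggaacu

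With the same counts and the same core, the summed counts of miR395, 24 at 200 mM and 25 in control roots, may stand for as few as 3 reads at 200 mM and 4 in control roots. The names miR395b, miR395c and miR395d differ from miR395a at the first base alone (U1C, U1A and U1G). The seed was shared by 5 of the 8 names, since miR395e, miR395f and miR395g start 1 or 3 bases after the first base of miR395a.

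**Figure D3:**
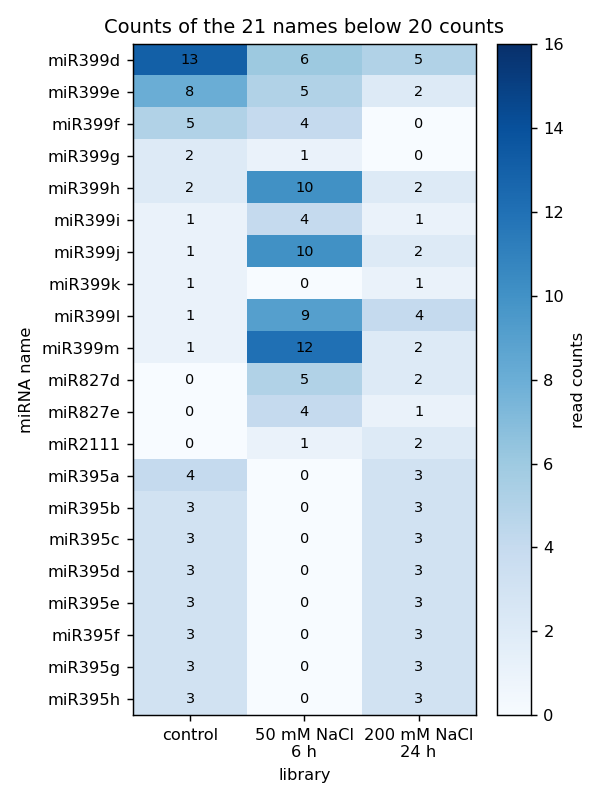
Read counts of the 21 names that stayed below 20 counts in every library, by name (rows) and library (columns), with the count printed and shaded. miR399h, miR399j, miR399l and miR399m have 9 to 12 counts at 50 mM, and the 8 miR395 names have 3 or 4 counts in control roots, 0 at 50 mM and 3 at 200 mM.

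The members were then set beside all names of the tables. A comparison took the names found in both libraries that reached 20 counts in either, and a name was past the rule of size when it was 2-fold or more higher or lower and its interval left out 1. Only 6 of the 27 names reached 20 counts in any library, and the other 21 peaked at 13 counts or fewer.

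At 50 mM over control, 1 of the 6 compared members, miR399c, was past the rule as higher, where 3 of all 162 names were (1.85%), and none as lower (3.09% of all names). miR399c entered this comparison through its count at 50 mM alone. At a ratio of at least 1.5, miR399b, miR399c, miR827a, miR827b and miR827c were past the rule as higher, 5 of 6 members and 14 of 162 names (8.64%). The median log2 ratio was 0.81 over the 6 members and −0.08 over all compared names, but the 6 names stand for 2 families with shared sequence. Summed over names, miR399 had a ratio of 1.84 and miR827 of 1.77, which ranked first and second of 29 families. Of these families, 13.8% (4 of 29) had a summed ratio of at least 1.5 with an interval above 1, the others being miR393, which targets auxin receptors, at 1.72 (1.23 to 2.43) and miR529, which targets SPL factors, at 1.72 (1.196 to 2.49). Without miR399c the ratio of miR399 was 1.52, below those of miR827, miR393 and miR529, so the family no longer ranked first. Without miR399c and the 5 names 1 base from it the ratio was 1.38, short of the threshold of 1.5.

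At 200 mM over control, none of the 5 compared members was past the rule as higher (3.57% of 168 names) or as lower (16.7%). The median log2 ratio was 0.25 over these members and −0.40 over all compared names. The members parted by family, with miR827a, miR827b and miR827c at 0.45, 0.25 and 0.28 and miR399a and miR399b at −0.84 and −0.36. Their median is that of miR827b, which shares sequence with the other miR827 names, and does not describe both families. Scaling moves members and all names alike, up by 0.34 with TMM factors and by 0.36 with median-of-ratios factors. Both medians thus depend on it, and the gap between them does not. Summed miR827, at a ratio of 1.34, ranked 6th of 33 families and summed miR399, at 0.627, ranked 26th. With a threshold of 1.5 on family sums, miR399 was 1 of 7 families that were lower (21.2%), and among single names miR399a was 1 of 46 lower at that threshold (27.4%). With TMM and median-of-ratios factors the ratio of summed miR399 was 0.791 and 0.807, with intervals that include 1 (0.617 to 1.01 and 0.629 to 1.03), while miR827 was at 1.69 and 1.72.

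Between the salt libraries, 200 mM over 50 mM, miR399a, miR399b and miR399c were past the rule as lower, 3 of 6 compared members beside 30 of all compared names (18.9%). miR399c entered this comparison through its count at 50 mM alone. None was higher, beside 6.29%. The ratios were 0.408 for miR399a, 0.444 for miR399b (0.296 to 0.658) and 0.163 for miR399c (0.0941 to 0.269). Summed miR399 had 0.341 (0.268 to 0.432), the lowest of the 32 families compared and 1 of 7 (21.9%) past a 1.5-fold threshold as lower; without miR399c it had 0.390, above miR160 at 0.359. miR827 had 0.754 (0.673 to 0.846) and ranked 21st. With TMM factors miR399b had 0.539 and was no longer past the rule, and with median-of-ratios factors miR399a had 0.504 (0.396 to 0.638) and miR399b 0.549 (0.366 to 0.812), which left miR399c alone past it. The comparisons with control share 1 control library.

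**Figure D4:**
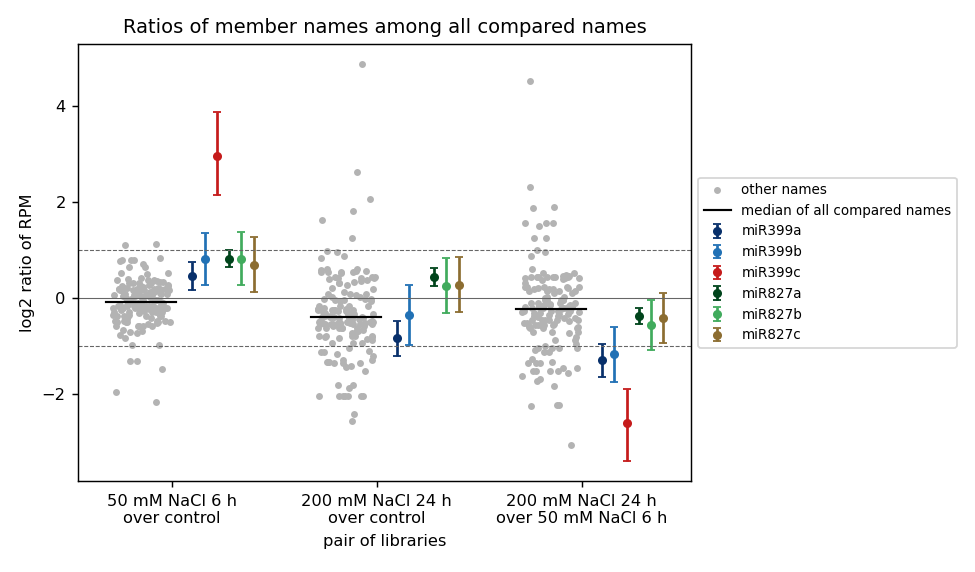
Log2 ratio of RPM for each compared name in the 3 pairs of libraries; grey points are other names, black lines the median of all compared names, coloured points the members with 95% intervals and dashed lines a ratio of 2 in either direction. At 50 mM over control miR399c stands far above its family, and between the salt libraries the 3 miR399 names lie below the lower dashed line; miR399c had too few counts to be compared at 200 mM over control.

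**Figure D5:**
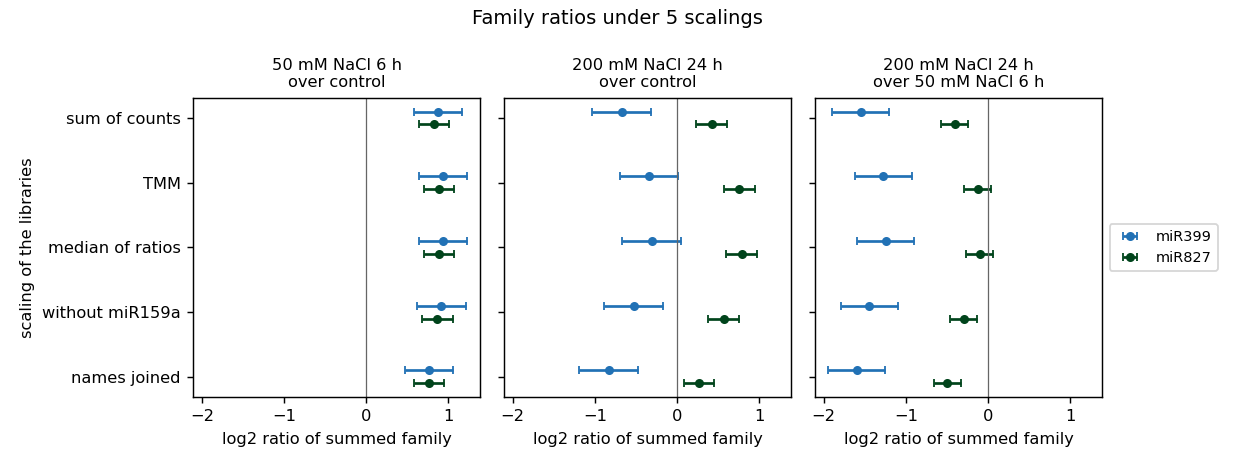
Log2 ratio of summed miR399 (blue) and miR827 (green) with 95% intervals in the 3 pairs of libraries under 5 scalings of the counts. miR399 lies below 0 at 200 mM over control under each scaling, with intervals that reach 0 under TMM and median of ratios; miR827 lies above 0 there under each.

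Of the other families, summed miR393 had the course nearest to that of summed miR399 among 26 families with at least 20 counts in every library, by the Euclidean distance of centred log2 RPM over the 3 libraries (0.43). Its sum was 459 RPM in control roots, then 792 at 50 mM and 401 at 200 mM. Next came miR160 (0.55) and miR171 (0.58). Nearest to miR827 were miR858 (0.40), miR319 (0.46) and miR403 (0.47). These distances rest on 3 libraries, which all families share.

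Other families known to respond to phosphate, sulfate or copper supply in Arabidopsis were miR156, miR169, miR398, miR397 and miR408; no name carried the number of miR778 or miR857. Of their 17 compared names, 0 were past the rule as higher (1.85% of all names) and 1, of miR156, as lower (3.09%) at 50 mM over control. The counts at 200 mM over control were again 0 and 1 of 17, beside 3.57% and 16.7% of all names. Between the salt libraries 1 of 14, of miR398, was higher (6.29% of all names) and 0 were lower (18.9%). miR398, which targets copper/zinc superoxide dismutases, had a summed ratio of 0.693 (0.592 to 0.809) at 50 mM over control and 1.25 (1.11 to 1.40) at 200 mM over control. In the same order, miR156 had 0.921 (0.832 to 1.02) and 0.697 (0.629 to 0.772). miR408 had 0.708 (0.622 to 0.806) and 0.676 (0.598 to 0.765), and miR397 had 1.15 (0.757 to 1.76) and 0.788 (0.506 to 1.22). miR169, which targets NF-YA factors, had 15, 14 and 13 counts over its 9 names.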

How the data were processed

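Per the labels' protocols, Trizol was used to isolate root RNA, and the NEBNext multiplex small RNA set for Illumina sequencing to build the libraries. Groups follow each sample's description. Aligner, allowed mismatches and reference: not given in the sources used here. The read counts deposited by the authors are whole numbers, 1 per miRNA name. The column headed TPM, deposited by the authors, is the count per 1000000 of the table's sum, as checked on every name, and is called RPM here. Names absent from a table were taken as 0 counts.

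Ratios of RPM have exact 95% conditional binomial (Clopper-Pearson) intervals, shares exact binomial ones and levels exact Poisson ones; an interval of a family takes the relative width of its most counted name. Of the members, all are given with counts; names with at least 20 counts in a library are given with levels and ratios. Members and lists were chosen with earlier results of these data known. Alternatives used TMM factors (edgeR 4.0.16), median-of-ratios factors, totals without miR159a, and joining of names that overlap by at least 16 nt (2 mismatches allowed) and differ by at most 5% or 3 reads in each library, which left 201 of 309 names and 14 of the 27 members. Python 3.11.15 and scipy 1.17.1 were used.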

Additional observations from a re-analysis of the deposited data

Results flagged for a closer look

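Summed miR399 and miR399a each stood on opposite sides of the control level in the salt libraries. The summed family had a ratio to control of 1.84 at 50 mM NaCl for 6 h and 0.627 at 200 mM NaCl for 24 h, and its most counted name, miR399a, had 1.37 and 0.558. Each interval excludes 1. The other compared names did not share the lower level at 200 mM over control beyond counting error. miR399b had 0.781 (0.503 to 1.21) there and miR399c 1.27 (0.602 to 2.73), with intervals that include 1. The difference between the treatments was not tested, since each has 1 library, and both ratios share the control library. Under TMM and under median-of-ratios scaling, the interval of the summed family at 200 mM over control includes 1.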

How the results depend on the processing

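No setting reversed a family or member ratio whose interval excludes 1. Of 46 recomputed family ratios 39 stayed within the interval of the value reported. At 50 mM over control, miR399 was at 1.37 with miR399a alone and at 1.38 without miR399c and the names 1 base from it, a setting added after seeing the data. At 200 mM over control, miR399 was at 0.807 with median-of-ratios factors, and miR827 at 1.69 with TMM and 1.72 with median-of-ratios factors. Between the salt libraries, miR827 was at 0.915 with TMM and 0.931 with median-of-ratios factors, with intervals that include 1 (0.816 to 1.03 and 0.830 to 1.04). Of 68 recomputed member ratios, 63 stayed within the interval reported.

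Counts of names moved more. At 50 mM over control, the 3 higher names became 8 with no count minimum and 14 at a ratio of 1.5, and the 5 lower ones 2 at 50 counts and 12 at a ratio of 1.5. The 1 higher member became 5 in each of the first 2 settings. With no count minimum the added ones were miR399h, miR399j, miR399l and miR399m, which may hold the same reads. At 200 mM over control, the 6 higher names became 10 with TMM, 10 with median-of-ratios factors and 12 at a ratio of 1.5, and the 28 lower ones 15 with median-of-ratios factors, 13 at 50 counts and 46 at a ratio of 1.5, where 1 member, miR399a, was lower. Between the salt libraries, the 10 higher names became 6 at 50 counts, and the 30 lower ones 19 with median-of-ratios factors. The 3 lower members became 1 with median-of-ratios factors and 6 with no count minimum, where 41 of all names were lower. The members added there were miR399h, miR399j and miR399m, which may hold the same reads. The cause was not tested, beyond the number of names each minimum or threshold admits.

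No paired analysis was possible because each group has 1 library, and no library was left out. No ratio value was formed for miR395 at 50 mM or for miR2111 in the control library, where the count was 0. For miR395a only the interval of the ratio is given. Depth limits the 21 names below 20 counts.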
